A study of Mus musculus with 8 samples.

Results

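Genes that drive mitosis and build the spindle were followed in mouse CD4 T cells cultured with or without TGF-b. The members were 48 listed genes of the passage from G2 into mitosis, the spindle and the kinetochore. Each was read from the brightest probe set that names that gene alone, by its mean signal over the 6 Smad3KO, Smad2KO and WT arrays. Ccnb1, which encodes cyclin B1, had no such probe set and was dropped. The other 47 members, of 18193 genes read from a single-gene probe set, all passed the filter on dim signals, which kept 9453 genes.

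A resting naive T cell lies outside the division cycle, and stimulation of its antigen receptor and CD28 brings it through growth and DNA replication into mitosis. Mitotic genes are transcribed late in each cycle, mainly through the factors MYB-related protein B and FOXM1, and in resting cells they are held off by the DREAM repressor complex. Their products condense and separate the chromosomes, attach them to spindle fibres, delay anaphase until every chromosome is attached, and divide the cell. TGF-b, a cytokine known to limit T cell proliferation, signals through the receptor-activated transcription factors Smad2 and Smad3.

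The study compared naive CD4 T cells from spleens of mice of the C57BL/6J strain, sorted as CD25-, CD44lo and CD62Lhi to a stated purity over 98%. The genotypes were a Smad3 knockout (Smad3KO), a conditional Smad2 knockout restricted to T cells (Smad2KO), conditional Smad2 knockout cells with 1 Smad3 allele lost (Smad2KO_Smad3het, used in place of cells lacking both genes) and wild type (WT). Cells of each genotype were cultured for 24 h with TGF-b at 2 ng/ml or without it, and every culture, those without TGF-b included, held antibodies to CD3e, CD28, IFN-g and IL-4 together with IL-2. RNA of each culture went on 1 Affymetrix array, 8 arrays in all. The labels do not name the promoter that drives the deletion of Smad2.

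Facts of the whole series bear on these values. Single arrays stand for each genotype and treatment, so the number of arrays limits the precision, and a difference between 2 arrays has no replicate check and no p. A limma p rests on the spread between these cultures, moderated by that of all genes tested. The labels do not say whether cultures came from separate animals. The deposited trimmed mean intensities ran from 202 to 298 on the 6 Smad3KO, Smad2KO and WT arrays, whose probe set signals had rank correlations of 0.907 to 0.928. They were 97.4 and 109 on the Smad2KO_Smad3het arrays with and without TGF-b, whose rank correlations with the other 6 were 0.660 to 0.693, and those 2 arrays are kept apart. Of 7 CD4 T cell markers read, all 7 passed the filter, with summed signals of 26389 to 28615 on the 6 arrays. The sums were 60.3 to 107 for 5 B cell markers, none of which passed, 106 to 214 for 6 myeloid markers (Csf1r alone passed), 68.2 to 161 for Cd8a and Cd8b1 (both passed), 9.11 to 87.4 for 3 NK markers (none passed) and 43.6 to 95.6 for 3 erythroid markers (Epor alone passed). The Smad2 probe set read 1046 and 1155 in Smad2KO with and without TGF-b, against 1031 and 1068 in WT, and the Smad3 probe set 730.2 and 614 in Smad3KO, against 548 and 149 in WT. The files do not show whether these probes read the deleted parts of the genes, so their signals are no check of the labels.

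Promoter windows of members are shown because the letters shared by late cell cycle promoters are the feature that the choice of members did not use. RefSeq windows of assembly GRCm38.p6, from 250 bases before each gene's start to 50 bases after it, matched 39 of the 47 members. Ccna2, Cdc25c, Aurkb, Incenp, Kif20a, Tpx2, Smc4 and Foxm1 are named without a window. Both strands were searched for TTTGAA and TTTAAA, the letters of the cell cycle homology region bound by DREAM and MYB-related protein B complexes, and for CCAAT, the letters bound by NF-Y. Capitals mark the matches below in windows of 5 members, read on the strand of the gene, and a capital match can read as the reverse complement (TTCAAA or ATTGG).
Cdk1: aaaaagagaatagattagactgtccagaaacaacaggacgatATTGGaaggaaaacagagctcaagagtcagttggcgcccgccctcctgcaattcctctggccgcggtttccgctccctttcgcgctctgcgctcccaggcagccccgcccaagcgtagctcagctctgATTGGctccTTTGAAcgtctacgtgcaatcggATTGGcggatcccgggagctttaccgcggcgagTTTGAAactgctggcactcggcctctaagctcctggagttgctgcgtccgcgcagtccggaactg
Bub1: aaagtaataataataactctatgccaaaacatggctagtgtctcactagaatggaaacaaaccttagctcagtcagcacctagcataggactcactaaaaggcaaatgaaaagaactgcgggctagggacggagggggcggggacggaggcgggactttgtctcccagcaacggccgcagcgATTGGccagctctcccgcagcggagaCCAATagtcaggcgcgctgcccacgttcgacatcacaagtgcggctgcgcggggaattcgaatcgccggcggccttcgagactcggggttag
Ube2c: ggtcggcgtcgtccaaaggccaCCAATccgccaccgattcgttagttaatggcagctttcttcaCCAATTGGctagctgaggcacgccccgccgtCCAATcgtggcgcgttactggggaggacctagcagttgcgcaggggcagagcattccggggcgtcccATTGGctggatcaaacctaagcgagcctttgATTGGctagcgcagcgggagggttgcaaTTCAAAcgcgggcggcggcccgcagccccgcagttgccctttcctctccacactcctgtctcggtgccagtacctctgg
Ncapg: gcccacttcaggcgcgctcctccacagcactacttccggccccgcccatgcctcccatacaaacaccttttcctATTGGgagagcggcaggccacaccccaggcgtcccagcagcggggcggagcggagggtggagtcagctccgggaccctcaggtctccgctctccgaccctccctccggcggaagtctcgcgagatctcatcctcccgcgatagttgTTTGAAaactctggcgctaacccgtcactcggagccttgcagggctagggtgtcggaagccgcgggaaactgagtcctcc
Top2a: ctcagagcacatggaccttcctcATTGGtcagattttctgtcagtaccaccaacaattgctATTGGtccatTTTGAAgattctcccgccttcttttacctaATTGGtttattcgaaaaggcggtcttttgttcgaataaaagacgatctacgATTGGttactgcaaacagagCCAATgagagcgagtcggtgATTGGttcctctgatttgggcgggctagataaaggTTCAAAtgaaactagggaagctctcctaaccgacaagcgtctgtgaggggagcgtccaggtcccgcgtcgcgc
The windows are Cdk1 at chr10:69352863-69353162 on the minus strand, Bub1 at chr2:127831810-127832109 on the minus strand, Ube2c at chr2:164769679-164769978 on the plus strand, Ncapg at chr5:45669675-45669974 on the plus strand and Top2a at chr11:99024140-99024439 on the minus strand.

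In the Cdk1 window TTTGAA began 71 and 15 bases before the gene's start (positions -71 and -15), and CCAAT matches began at -208, -80 and -48. Ube2c held TTTGAA at -29 and 6 CCAAT matches, 2 of which overlap in CCAATTGG. Ncapg held TTTGAA at -30 with a single CCAAT match at -176, and Top2a held TTTGAA at -179 and -23 with 6 CCAAT matches. Bub1 had 2 CCAAT matches, at -68 and -42, and neither TTTGAA nor TTTAAA in these letters. Over the 39 members with a window, 28 (71.8%) held TTTGAA, against 13.9% of 7779 genes past the filter and 20.2% of all 27025 genes with a window. TTTGAA or TTTAAA was found in 31 members (79.5%), against 21.8% and 30.6%, CCAAT in 29 (74.4%), against 43.2% and 41.1%, and CCAAT together with TTTGAA or TTTAAA in 26 (66.7%), against 8.86% and 12.2%. Ncaph, Nuf2, Mad2l1, Melk and Pttg1 held none of the 3 motifs in their windows. A match is a description of the letters and not a binding site.

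With TGF-b the mitotic genes had lower signals on average over Smad3KO, Smad2KO and WT cells. Of the 47 members 13 fell and 0 rose in limma's test of the mean response at an adjusted p under 0.05, where 5.61% of the 9453 genes tested fell and 7.16% rose. The median log2 difference, with minus without TGF-b, was -0.29 over the members and -0.02 over all genes tested, and 42 of 47 members stood below 0. Before adjustment 28 members had a p under 0.05, all of them lower, where 2660 of the 9453 genes tested had such a p, 1366 of them lower. In whole cultures, fewer dividing cells and less mitotic RNA in each cell cannot be told apart. The test used the 6 arrays with genotype as a block, so it sets the mean of 3 log2 ratios against a moderated spread. Limma draws that spread from the gene's own ratios and from a trend over all genes tested. On simulated data this test made more false calls than its threshold allows. None of the 13 passed without the WT pair of arrays, 3 members passed without the Smad2KO pair and 22 without the Smad3KO pair. The count was also 0 with no filter, with all 8 arrays and without trend and robust variances, and 1 with the mean of a gene's probe sets or without the genotype block.

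**Figure D1:**
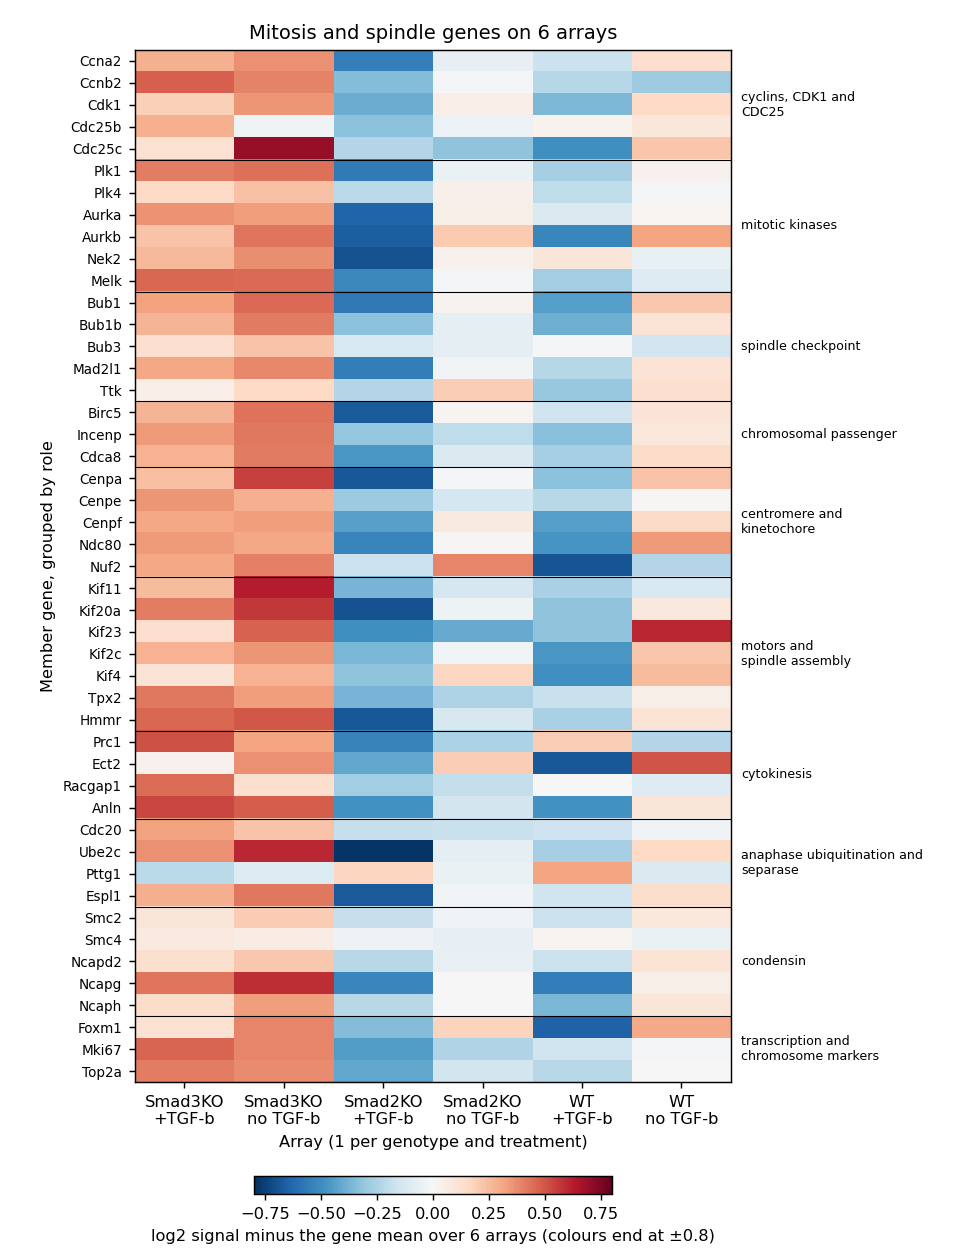
Each cell is the log2 signal of a member (row, grouped by role) on an array (column) minus that gene's mean over the 6 arrays, with colours ending at 0.8 in either direction. The Smad3KO columns on the left are red for most genes, and the columns with TGF-b of Smad2KO and WT are blue for most, with Pttg1 running the other way.

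Entry into mitosis is driven by CDK1, the kinase that phosphorylates the mitotic substrates, with its cyclins and the CDC25 phosphatases that switch it on. Cdk1 signals were 1701 and 1908 in Smad3KO with and without TGF-b, 1132 and 1550.4 in Smad2KO and 1163 and 1669 in WT. Each genotype was lower with TGF-b, and the Smad3KO array with TGF-b lay above the WT and Smad2KO arrays without it. On the log2 scale of the mean response, Cdk1 fell by 0.38 (SE 0.0856, limma adjusted p = 0.0130). Ccna2, for cyclin A2, a partner of CDK1 and CDK2, fell by 0.29 (SE 0.0862, limma adjusted p = 0.0477). Ccnb2, for a mitotic cyclin, had log2 ratios of 0.08 in Smad3KO, -0.34 in Smad2KO and 0.06 in WT and did not pass.

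The phosphatase genes differed from Cdk1. Cdc25b signals were 189.7 and 153 in Smad3KO with and without TGF-b, 124 and 151 in Smad2KO and 159 and 166 in WT. The Smad3KO array with TGF-b was the highest and the Smad2KO array with TGF-b the lowest, and the mean difference was -0.01 (limma adjusted p = 0.975). Cdc25c lay nearest the floor of 32.5, below which signals carry no order, with 52.2 and 77.7 in Smad3KO, 40.8 and 38.3 in Smad2KO and 34.1 and 56.0 in WT. Its log2 ratios of -0.57 in Smad3KO and -0.72 in WT stood against 0.09 in Smad2KO, and it did not pass (limma adjusted p = 0.429). Another Cdc25c probe set, also close to the floor, had -0.62 in Smad3KO, -0.64 in Smad2KO and 0.13 in WT, so the order of the genotypes depends on the probe set.

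Among 6 mitotic kinases, 1 fell. Aurkb, the kinase of the chromosomal passenger complex that corrects faulty attachments, read 748 and 859 in Smad3KO with and without TGF-b, 403 and 736 in Smad2KO and 444 and 792 in WT. The 2 lowest signals were those with TGF-b in Smad2KO and WT, while Smad3KO with TGF-b lay within the range of the arrays without it. Aurkb fell by 0.63 (SE 0.132, limma adjusted p = 0.0125). Plk1, a kinase of centrosome maturation and mitotic entry, read 396 and 405 in Smad3KO, 202 and 288 in Smad2KO and 248 and 307 in WT. Both Smad3KO arrays lay above the other 4 and the Smad2KO array with TGF-b was the lowest, and the mean difference of -0.28 did not pass (limma adjusted p = 0.169).

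Nek2, which separates the centrosomes, read 403 and 435 in Smad3KO with and without TGF-b, 207 and 344 in Smad2KO and 359 and 323 in WT. It was lower with TGF-b in both knockouts and higher with it in WT, and its mean difference of -0.23 did not pass (limma adjusted p = 0.387). A second bright Nek2 probe set had ratios of 0.14 in Smad3KO, -0.50 in Smad2KO and -1.07 in WT, so the Smad3KO and WT directions differed between probe sets. Aurka, a kinase of spindle poles, had log2 ratios of 0.03 in Smad3KO, -0.69 in Smad2KO and -0.14 in WT. Melk, a mitotic kinase, stood at 0.01, -0.50 and -0.17 in the same order, and Plk4, which starts centriole duplication, at -0.08, -0.25 and -0.19. None of these 3 passed.

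The spindle checkpoint holds back anaphase while kinetochores are unattached, and 2 of its 5 members fell. Bub1, a checkpoint kinase, read 1018 and 1119 in Smad3KO with and without TGF-b, 548 and 832 in Smad2KO and 601 and 947 in WT. Both Smad3KO arrays lay above all others, and the arrays with TGF-b of Smad2KO and WT were the 2 lowest. Bub1 fell by 0.46 (SE 0.109, limma adjusted p = 0.0177). Another Bub1 probe set, nearer the floor, had ratios of 0.12 in Smad3KO, -0.50 in Smad2KO and -0.85 in WT. Its level difference of Smad3KO minus WT was -0.15, so the Smad3KO level of Bub1 depends on the probe set. Mad2l1, the MAD2 protein that blocks CDC20, fell by 0.31 (SE 0.0866, limma adjusted p = 0.0367). Bub1b at -0.30 and Ttk, the MPS1 kinase, at -0.33 did not pass, and Bub3, a scaffold of the checkpoint, was at 0.00 (limma adjusted p = 0.994). Ttk was among the 4 members whose 3 signals with TGF-b all lay below the 3 without it, together with Kif4, Ect2 and Foxm1. That is a smaller share of the 47 members than the 14.2% of all genes tested that had this order.

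Of the other 3 chromosomal passenger genes, 2 fell. Birc5, for survivin, fell by 0.37 (SE 0.103, limma adjusted p = 0.0395), and Cdca8, for borealin, by 0.30 (SE 0.0813, limma adjusted p = 0.0317). Incenp, the scaffold on which Aurora B sits, was at -0.20 and did not pass (limma adjusted p = 0.133). Its log2 ratio was -0.42 in WT, against -0.08 in Smad3KO and -0.10 in Smad2KO. The other bright Incenp probe sets had 0.09, -0.38 and 0.20 in Smad3KO, -0.39, 0.36 and 0.11 in Smad2KO and -0.59, -0.55 and -1.14 in WT. WT was the lowest on each, while the values of the knockouts and their order depend on the probe set.

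At the centromere and kinetochore 1 of 5 members fell. Cenpa, the histone H3 variant that marks centromeres, read 548 and 679 in Smad3KO with and without TGF-b, 290.4 and 462 in Smad2KO and 371 and 545 in WT. Its log2 ratios of -0.31, -0.67 and -0.56 were below 0 in all 3 genotypes, and it fell by 0.51 (SE 0.105, limma adjusted p = 0.00822). Nuf2 and Ndc80, partners in the complex that grips spindle fibres, stood at -0.37 and -0.44 and did not pass (limma adjusted p = 0.0506 and 0.0930). Ndc80 read 399 and 391 in Smad3KO, 219 and 318 in Smad2KO and 228 and 400.2 in WT, so the signal with TGF-b was low in Smad2KO and WT and not in Smad3KO. Cenpf, a kinetochore protein, was at -0.38 and Cenpe, a kinetochore motor, at -0.10, and neither passed.

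None of the 7 motor and spindle assembly genes passed, although all 7 stood below 0, with a median of -0.37. Kif4, a chromosome-bound kinesin, was at -0.47 (limma adjusted p = 0.0599) and Kif20a, a kinesin of the central spindle, at -0.40 (limma adjusted p = 0.0509). Kif23, the kinesin of the centralspindlin complex, read 350.0 and 441 in Smad3KO with and without TGF-b, 227 and 241 in Smad2KO and 255 and 485 in WT. The WT array without TGF-b was the highest of the 6, and the ratio was -0.92 in WT, against -0.33 in Smad3KO and -0.09 in Smad2KO. Kif11, the kinesin that pushes spindle poles apart, read 495 and 643 in Smad3KO, 321 and 379 in Smad2KO and 348 and 383 in WT. Its ratio on this probe set was the lowest in Smad3KO, at -0.38, with -0.24 in Smad2KO and -0.14 in WT. The other 2 bright Kif11 probe sets had the opposite order, with -0.10 and 0.02 in Smad3KO, -0.65 and -0.54 in Smad2KO and -0.69 and -0.77 in WT. Kif2c, which takes spindle fibres apart, stood at -0.37, Hmmr, a spindle protein, at -0.32 and Tpx2, an activator of Aurora A, at -0.09. Their other bright probe sets had means of -0.21 and -0.25 for Kif2c, -0.47 to -0.55 for Hmmr and -0.17 for Tpx2.

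Of 4 cytokinesis genes 1 fell, by the most of any member. Ect2, the exchange factor that activates RhoA at the division plane, read 450.3 and 567 in Smad3KO with and without TGF-b, 329.7 and 505 in Smad2KO and 275 and 624 in WT. All 3 signals with TGF-b lay below all 3 without it. Ect2 fell by 0.71 (SE 0.149, limma adjusted p = 0.0137), to 0.611 times the level without TGF-b. On the brightest probe sets it was the only member past 2-fold among Smad3KO, Smad2KO and WT, with a log2 ratio of -1.18 in WT. There 2.89% of genes were 2-fold lower and 4.53% 2-fold higher. In Smad3KO no member was 2-fold lower or higher, where 0.839% and 1.9% of genes were. In Smad2KO no member was either on these probe sets, where 1.76% and 2.94% of genes were. Other bright probe sets did pass 2-fold, in WT for Kif23 (-1.30), Hmmr (-1.23 and -1.02), Incenp (-1.14) and Nek2 (-1.07). In Smad2KO a further Foxm1 probe set did, at -1.14.

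Racgap1, the partner of Kif23 in centralspindlin, read 655 and 528 in Smad3KO with and without TGF-b, 397 and 422 in Smad2KO and 480.3 and 448 in WT. It had a ratio of 0.31 in Smad3KO and a mean of 0.11 that did not pass (limma adjusted p = 0.541). The other bright Racgap1 probe set had ratios of 0.06 in Smad3KO, -0.16 in Smad2KO and -0.40 in WT. Its mean was -0.16, so the direction of Racgap1 depends on the probe set. Prc1, which bundles the fibres of the central spindle, read 438 and 383 in Smad3KO, 212 and 258 in Smad2KO and 353 and 262 in WT, and its mean of 0.11 did not pass (limma adjusted p = 0.641). Its other bright probe set gave -0.56 in WT in place of 0.43, so the WT direction of Prc1 differed between its probe sets. Anln, for the cytokinetic scaffold anillin, read 269 and 259.6 in Smad3KO, 133 and 168 in Smad2KO and 133 and 199 in WT, lower with TGF-b in Smad2KO and WT and about level in Smad3KO, and did not pass (limma adjusted p = 0.253).

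Anaphase starts when the ubiquitin ligase APC/C destroys securin and frees separase. Ube2c, the ubiquitin-conjugating enzyme of APC/C, read 918 and 1082 in Smad3KO with and without TGF-b, 414 and 674 in Smad2KO and 592 and 794 in WT. The Smad2KO array with TGF-b was the lowest and both Smad3KO arrays the highest, and Ube2c fell by 0.45 (SE 0.103, limma adjusted p = 0.0132). Pttg1, for securin, ran against the others, with 1562 and 1683 in Smad3KO, 2046 and 1751 in Smad2KO and 2259.9 and 1676 in WT. Its 2 highest signals were those with TGF-b in WT and Smad2KO, and its mean of 0.18 did not pass (limma adjusted p = 0.253). A second bright Pttg1 probe set had ratios of -0.11 in Smad3KO, 0.06 in Smad2KO and 0.06 in WT, and another, close to the floor, -0.71, 0.52 and -0.71. Cdc20, the APC/C activator, was at -0.02 and Espl1, separase, at -0.36, and neither passed.

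Condensin folds the chromosomes, and 2 of its 5 members fell. Ncapg, a subunit of condensin I, read 683 and 763 in Smad3KO with and without TGF-b, 354 and 508 in Smad2KO and 346 and 525 in WT. Both Smad3KO arrays were above the other 4, and Ncapg fell by 0.43 (SE 0.109, limma adjusted p = 0.0240). Ncaph, another condensin I subunit, fell by 0.29 (SE 0.0836, limma adjusted p = 0.0421). Smc4, an ATPase of both condensins, read 4547 and 4486 in Smad3KO, 4176 and 4104 in Smad2KO and 4372 and 4143 in WT, a mean of 0.04 that did not pass (limma adjusted p = 0.718). Smc2, its ATPase partner, was at -0.17 and Ncapd2, a further condensin I subunit, at -0.18, and neither passed. The other bright Smc2 probe sets had means of -0.23, 0.14 and -0.20. Another bright Ncapd2 probe set had a mean of 0.28 and a level difference of Smad3KO minus WT of -0.42. The directions of Ncapd2 therefore depend on the probe set.

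Foxm1, the transcription factor of late cell cycle genes, read 179 and 215 in Smad3KO with and without TGF-b, 129 and 186 in Smad2KO and 105 and 202 in WT. All 3 signals with TGF-b lay below all 3 without it, and Foxm1 fell by 0.58 (SE 0.167, limma adjusted p = 0.0421). Its other 2 bright probe sets had ratios of -0.19 and 0.45 in Smad3KO, -0.79 and -1.14 in Smad2KO and -0.07 and -0.22 in WT. Mki67, the proliferation marker Ki-67 that coats mitotic chromosomes, read 2581 and 2455 in Smad3KO, 1369.8 and 1579 in Smad2KO and 1676 and 1859 in WT. Top2a, the topoisomerase that untangles sister chromosomes, read 4087 and 4003 in Smad3KO, 2309 and 2783 in Smad2KO and 2637 and 3072 in WT. In both genes the Smad3KO arrays stood highest whatever the treatment, and the mean differences with TGF-b, -0.09 for Mki67 and -0.15 for Top2a, did not pass (limma adjusted p = 0.467 and 0.209).

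**Figure D2:**
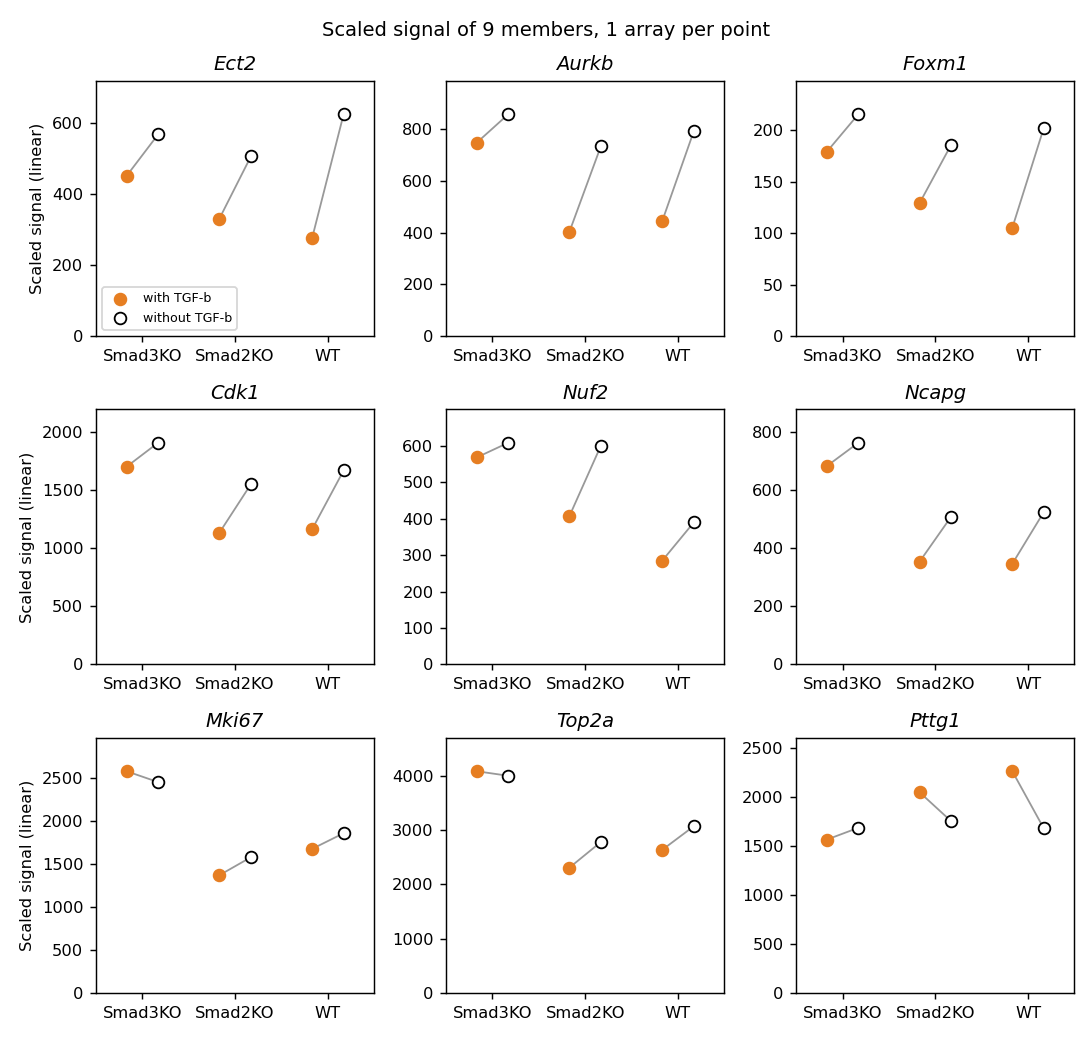
Scaled linear signals of 9 members are shown on axes that start at 0, with filled points for arrays with TGF-b, open points for arrays without it, and a line joining the 2 arrays of a genotype. Ect2, Aurkb, Foxm1 and Cdk1 drop with TGF-b in each genotype, Nuf2, Ncapg, Mki67 and Top2a have their highest point in Smad3KO, and Pttg1 is higher with TGF-b in Smad2KO and WT.

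The median ratio was nearer 0 in Smad3KO than in the other genotypes, a difference that these arrays could not test. Only 1 residual degree of freedom is left for it, and on simulated data limma recovered no gene with a changed ratio in this design, so a p that misses the threshold here says nothing for or against a difference. The median log2 ratio over the 47 members was -0.10 in Smad3KO, -0.35 in Smad2KO and -0.34 in WT. Members below 0 numbered 33 in Smad3KO, 44 in Smad2KO and 40 in WT, and 29 were below 0 in all 3, where 26.5% of all genes tested were. In 39 of 47 members the ratio was higher in Smad3KO than in both Smad2KO and WT, where 36.7% of all genes tested had that order. The exceptions were Cdc25c, Nek2, Bub3, Kif11, Kif23, Prc1, Pttg1 and Smc4, although at least 1 other bright probe set each of Nek2, Kif11, Kif23, Prc1 and Smc4 did have that order. Over the 42 bright further probe sets of members, 24 had it. In 37 members the ratio was below 0 in both Smad2KO and WT and higher than these in Smad3KO, where 26% of genes tested were. Mki67, Top2a, Ndc80, Aurka and Anln were among 14 members with a ratio above 0 in Smad3KO. The highest there, on the brightest probe sets, were Racgap1 and Cdc25b at 0.31 each and Prc1 at 0.19.

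The ratio in Smad3KO minus the mean of Smad2KO and WT had a median of 0.31 over the members and 0.01 over all genes, with 42 of 47 above 0. It was highest for Ndc80, at 0.71 (SE 0.292, limma adjusted p = 0.826), Aurkb, at 0.65 (SE 0.335, limma adjusted p = 0.837), and Ect2, at 0.57 (SE 0.422, limma adjusted p = 0.858), and lowest for Pttg1, at -0.44 (SE 0.217, limma adjusted p = 0.832). Limma called 0 of 9450 genes (0% higher and 0% lower) and 0 members. Before adjustment 535 genes and 1 member, Cdc25b at 0.48 (limma adjusted p = 0.826), had a p under 0.05. The mean ratio of the 2 knockouts minus that in WT had a median of 0.12 over the members, with 34 above 0. Limma again called 0 of 9426 genes (0%), and 543 genes and 0 members had an unadjusted p under 0.05. The members' ratios correlated across the 47 genes at Pearson 0.16 between Smad3KO and Smad2KO, 0.56 between Smad3KO and WT and 0.39 between Smad2KO and WT, a description over genes of pairs with no array in common.

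**Figure D3:**
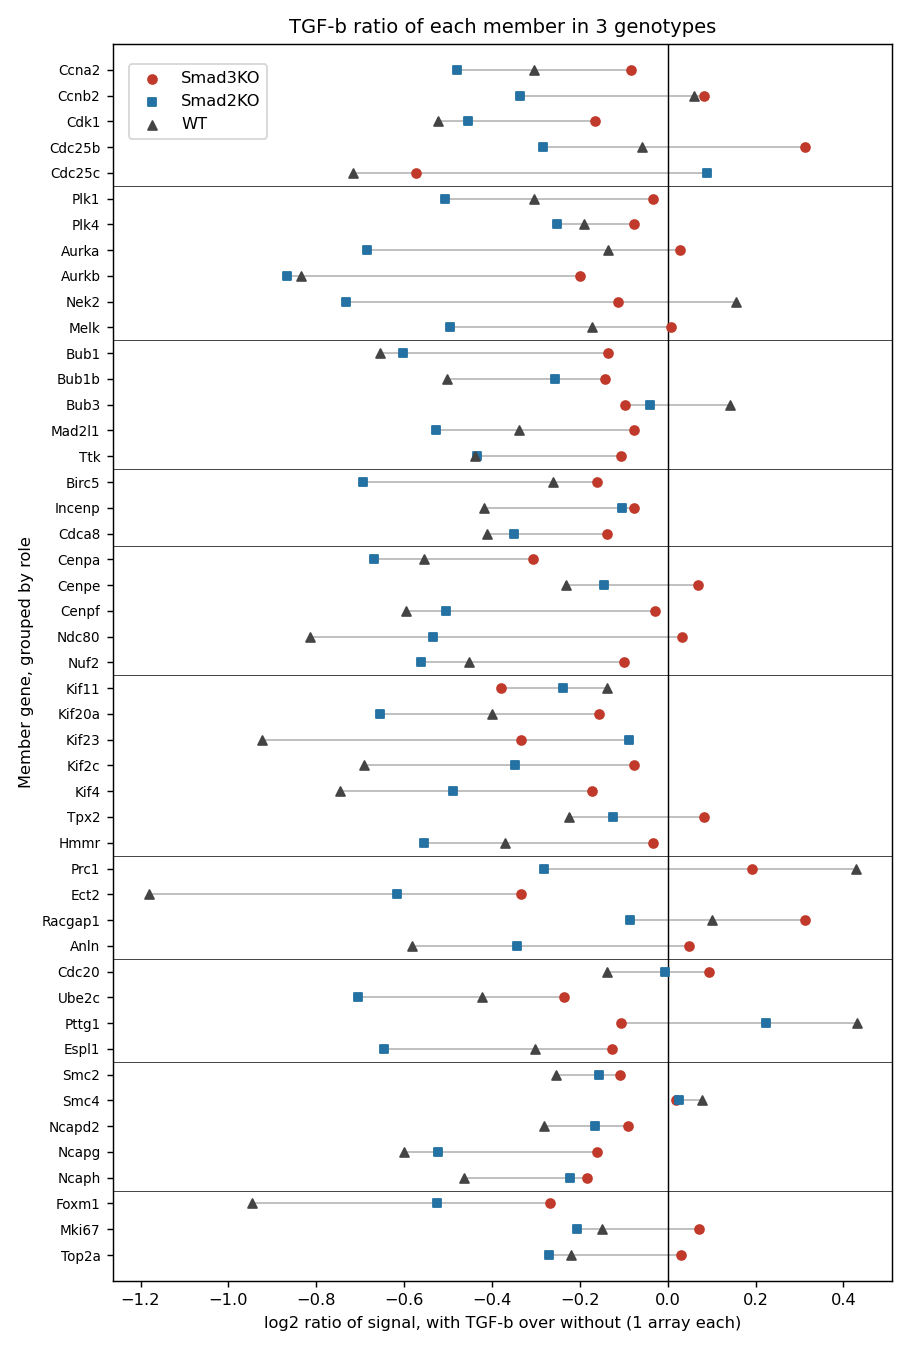
Each row is a member, and its 3 points are the log2 ratios of signal with TGF-b over without in Smad3KO (circles), Smad2KO (squares) and WT (triangles), each from 2 arrays. The Smad3KO circle lies right of both other points in 39 of 47 rows, and the triangle of Ect2, at -1.18, lies farthest left.

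Smad3KO cells had higher signals of mitotic genes than WT cells over both treatments. Limma's test of levels takes the 2 arrays of a genotype as replicates. Genotype therefore cannot be told apart from the cells or the culture behind those arrays. On simulated data this test, too, made more false calls than its threshold allows. Of 47 members 4 were higher and 0 lower at a limma adjusted p under 0.05, where 0.222% of the 9453 genes tested were higher and 0.243% lower. The median log2 difference of Smad3KO minus WT was 0.42 over the members and 0.01 over all genes, and 46 of 47 members stood above 0. An unadjusted p under 0.05 was found for 35 members, all of them higher. Of the 9453 genes tested 1040 had such a p, 513 of them higher. In 36 members both Smad3KO arrays lay above the other 4, against 10.1% of all genes tested, and in 0 members both lay below, against 7.33%. The exceptions were Cdc25b, Cdc25c, Aurkb, Ttk, Ndc80, Nuf2, Kif23, Kif4, Ect2, Pttg1 and Foxm1. The count of 4 became 0 without the Smad3KO array with TGF-b, without either WT array, with no filter, with a filter on mean signal, with the mean of probe sets, with all 8 arrays, without trend and robust variances or without the treatment block. The median was 0.25 without the Smad3KO array with TGF-b. The count became 2 with quantile normalization or no floor, 8 with a lower floor, 16 without the Smad3KO array without TGF-b, 11 without the Smad2KO array with TGF-b and 9 without the Smad2KO array without it.

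Nuf2 showed the largest difference, 0.82 (SE 0.137, limma adjusted p = 0.0327), with signals of 568 and 608 in Smad3KO with and without TGF-b, against 284 and 389 in WT. Its Smad2KO signals, 407 and 600.5, overlapped with those of Smad3KO. Ncapg was 0.76 higher (SE 0.133, limma adjusted p = 0.0368), Top2a 0.51 (SE 0.0922, limma adjusted p = 0.0445) and Mki67 0.51 (SE 0.0955, limma adjusted p = 0.0480). For these 3 genes the Smad3KO signals given above did not overlap with those of the other 4 arrays. Anln, at 0.70, did not pass (SE 0.193, limma adjusted p = 0.163), and neither did Melk at 0.65, Kif11 at 0.63 and Kif20a at 0.61 (limma adjusted p = 0.0668, 0.0649 and 0.118).

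The difference of Smad3KO from WT was also read within each treatment, from single arrays. Its median over the members was 0.57 with TGF-b, with 46 above 0, and 0.28 without it, with 43 above 0, and the gap between the treatments was not tested for this pair of genotypes. With TGF-b the differences ran up to 1.01 for Anln and 1.00 for Nuf2, with Pttg1 at -0.53 as the only member below 0. Without TGF-b they ran up to 0.75 for Kif11 and 0.68 for Ccnb2, with Ect2 and Kif23 at -0.14 each as the lowest. In 42 members Smad3KO lay above WT in both treatments, against 27.4% of all genes tested. The members' median signal difference by role ran between 0.21 for condensin and 0.51 for Foxm1, Mki67 and Top2a as a group.

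**Figure D4:**
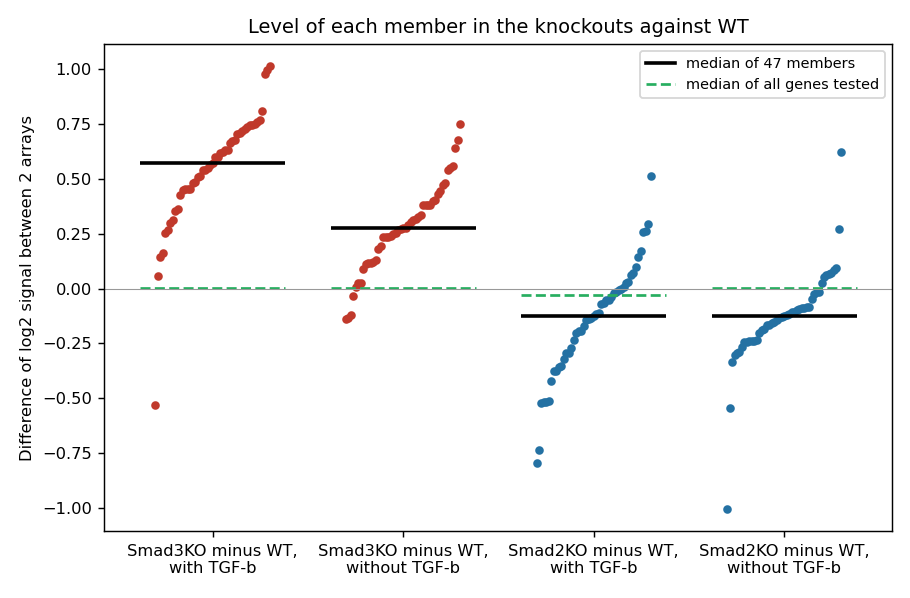
Each point is a member's difference of log2 signal between 2 arrays of the same treatment, for Smad3KO minus WT and Smad2KO minus WT, with solid lines at the median of 47 members and dashed lines at the median of all genes tested. The medians are 0.57 and 0.28 for Smad3KO with and without TGF-b, and the Smad2KO points lie around a line below 0.

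In Smad2KO cells no member passed the test against WT. Of 47 members 0 were higher and 0 lower than in WT at a limma adjusted p under 0.05, where 0.508% of the 9453 genes tested were higher and 0.497% lower. The median difference of Smad2KO minus WT was -0.12 over the members and -0.01 over all genes, with 40 of 47 below 0. Without the WT array without TGF-b the median was -0.07 with 29 below 0, without the Smad2KO array with TGF-b -0.07 with 34 below 0, and without the WT array with TGF-b -0.21 with 41 below 0. With the mean of a gene's probe sets it was -0.07, with 37 below 0. Of the 9453 genes tested 887 had an unadjusted p under 0.05, 460 of them lower, and 8 members did. Ccna2, Birc5, Cdca8, Cenpa, Kif23, Ube2c and Mki67 were the 7 lower ones, between -0.23 for Cdca8 and -0.59 for Kif23 (limma adjusted p = 0.482 and 0.289), and Nuf2 was higher, at 0.57 (SE 0.137, limma adjusted p = 0.0955). Nuf2 and Ttk were the only members with Smad2KO above WT in both treatments, against 26.4% of all genes tested, and in 28 members Smad2KO lay below WT in both, against 30%. In 32 members the Smad2KO array with TGF-b had the lowest signal of the 6, against 19.8% of genes, and in 12 the WT array with TGF-b did, against 20.8%. The tests of Smad3KO and of Smad2KO against WT share both WT arrays.

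Other probe sets of the same genes gave a second reading of these levels from the same RNA. The members had 64 further probe sets in 32 genes, of which 42 in 28 genes were bright. Their mean response to TGF-b was below 0 in 36 of 42, with a median of -0.30, and Smad3KO lay above WT in 38 of 42, with a median of 0.33. For the 13 members that fell, 10 bright further probe sets in 8 genes all stood below 0. The second bright Top2a probe set read 705 and 572 in Smad3KO with and without TGF-b, 349 and 310.1 in Smad2KO and 405 and 387 in WT. Its levels were again highest in Smad3KO, while its ratios with TGF-b were above 0 in all 3 genotypes. A second Kif23 probe set had ratios of -0.67 in Smad3KO, -0.93 in Smad2KO and -1.30 in WT, farther below 0 than the brightest one.

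Other cell cycle genes, listed by role, were read for comparison. Of 48 further mitosis genes 4 fell with TGF-b and 0 rose, with a median of -0.22, and of 37 genes of the G1/S transition and replication 4 fell and 0 rose, with a median of -0.12. Over all genes tested 5.61% fell and 7.16% rose, and the shares in these lists were not tested against that background. Zwilch, a kinetochore checkpoint protein, fell by 0.64 (SE 0.0829, limma adjusted p = 0.000418), and Cdca3, a mitotic regulator, by 0.49 (SE 0.119, limma adjusted p = 0.0196). Ncapg2, a condensin II subunit, fell by 0.48 (SE 0.0837, limma adjusted p = 0.00276). It read 1737 and 2102 in Smad3KO with and without TGF-b, 1340.4 and 1998 in Smad2KO and 1053 and 1598 in WT, lower with TGF-b in each. Ncapg2 was also higher in Smad3KO than in WT by 0.56 (SE 0.103, limma adjusted p = 0.0467), alone among the 48. Among replication genes Tk1, a nucleotide salvage kinase, fell by 0.38 (SE 0.103, limma adjusted p = 0.0327), Mcm10, a replication initiation factor, by 0.34 (SE 0.0837, limma adjusted p = 0.0201) and Orc1, an origin recognition subunit, by 0.32 (SE 0.0925, limma adjusted p = 0.0428).

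Calls among the regulators of these genes were few, and those among DREAM, E2F, APC/C and cohesin genes were no more frequent than over all genes tested. Of 22 DREAM and E2F regulators Rbl2, the p130 pocket protein of DREAM, rose by 0.34 (SE 0.0941, limma adjusted p = 0.0343) and E2f8, a repressive E2F, fell by 0.38 (SE 0.109, limma adjusted p = 0.0396). Of 11 CDK inhibitors and D cyclins read, with related growth brakes in the same list, 3 rose and 0 fell. Cdkn1b, the CDK inhibitor p27, read 201 and 129 in Smad3KO with and without TGF-b, 225 and 129.9 in Smad2KO and 233 and 129 in WT. The arrays without TGF-b were nearly equal and all 3 with it lay above them, a rise of 0.76 (SE 0.147, limma adjusted p = 0.00573). Ccng2, for the growth-restraining cyclin G2, rose by 0.72 (SE 0.180, limma adjusted p = 0.0285), with ratios of 0.13 in Smad3KO and 1.02 in both Smad2KO and WT, and Btg1, an antiproliferative factor, rose by 0.47 (SE 0.0659, limma adjusted p = 0.000690). Ccng1, for cyclin G1, was 0.51 higher in Smad3KO than in WT (SE 0.0937, limma adjusted p = 0.0473). Of 23 APC/C and cohesin genes Anapc2, an APC/C subunit, rose by 0.44 (SE 0.111, limma adjusted p = 0.0235) and Esco2, a cohesin acetyltransferase, fell by 0.58 (SE 0.114, limma adjusted p = 0.00617). The Smad3KO level against WT had medians of 0.28 over further mitosis genes, 0.14 over G1/S and replication genes, 0.11 over APC/C and cohesin genes and 0.03 over DREAM and E2F regulators, against 0.42 over the members.

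**Figure D5:**
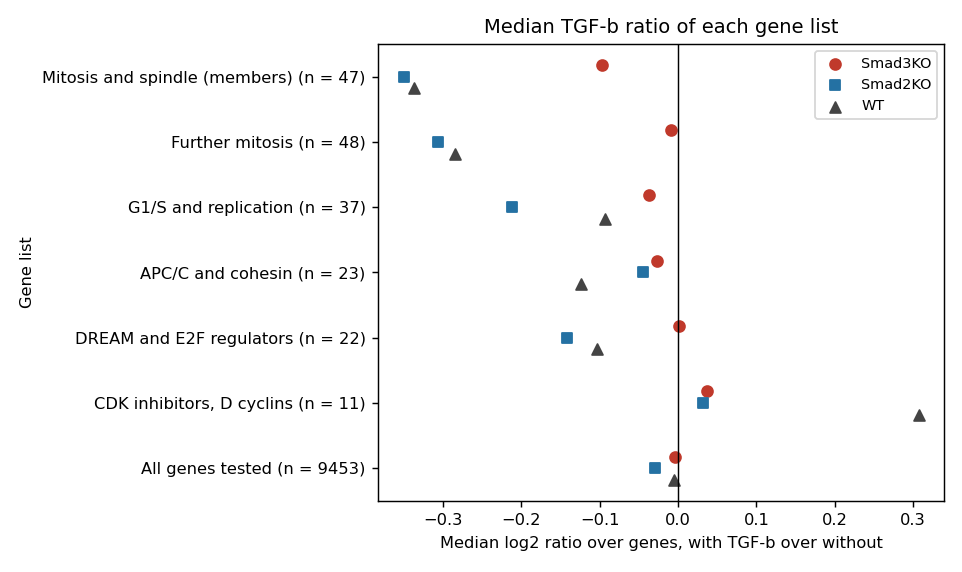
Each row is a gene list and each point the median log2 ratio of its genes, with TGF-b over without, in Smad3KO (circles), Smad2KO (squares) and WT (triangles). The members and the further mitosis genes lie farthest left in Smad2KO and WT, at -0.35 and -0.34 for the members, and the CDK inhibitor list lies right of 0 in WT, at 0.31.

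In the Smad2KO_Smad3het genotype, whose arrays stood apart, the members were read after scaling all 8 arrays together, with a floor of 41.9. Their median log2 ratio with TGF-b over without was -0.22, with 35 of 47 below 0. It was -0.01 over the 12577 genes that reached 2 times that floor on at least 1 of the 2 Smad2KO_Smad3het arrays. Cdc25b was the only member 2-fold higher, with signals of 195 with TGF-b and 89.5 without, where 10.9% of genes were 2-fold higher. Kif23, at 136 with TGF-b and 342 without, and Cdc25c, whose signal with TGF-b lay under the floor, were the 2 members at least 2-fold lower, where 9.28% of genes were. Cdk1 read 1148 with TGF-b and 1721 without, Top2a 1770.1 and 2345, and Mki67 1209.7 and 1178.

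Both Smad2KO_Smad3het arrays lay below the other 6 in 13 members, among them Ect2, Ncapg, Bub3 and Smc4, where 32.2% of the 12577 genes did. The median over members of the mean signal in Smad2KO_Smad3het over that of the other arrays was 0.789, against 1.21 over those 12577 genes. They were kept for their signal on the Smad2KO_Smad3het arrays, and 5616 genes dim on both were left out. That choice favours genes high there, so 32.2% and 1.21 are no unbiased background. Summed CD4 T cell marker signals were 16348 and 15179 on these arrays with and without TGF-b, on the scale of the 8 arrays. The sums were 2123 and 2545 for myeloid markers, 959.6 and 634 for B cell markers and 1347 and 1049 for Cd8a and Cd8b1. They were 606 and 313 for NK markers and 486 and 397 for erythroid markers. The median scaled signal of all probe sets was 90.9 and 88.0 on these arrays, against 26.2 to 30.4 on the other 6. The part of other cell types or of the scaling in these values was not tested.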

How the data were processed

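The authors deposited 1 linear intensity per probe set and array. GCOS 1.4 (Affymetrix GeneChip Operating Software) is named per the submitters' processing notes, while no label or file header names its algorithm or scaling. The deposited intensities of the 6 Smad3KO, Smad2KO and WT arrays were scaled to a common 2% trimmed mean, floored at the median of all scaled signals (32.5) and put on the log2 scale. A gene was tested if its highest signal reached 65.0, which is 2 times the floor. Gene names came from the platform annotation: of 45101 probe sets, 34945 had 1 gene symbol, 932 several, 9160 none and 64 were controls.

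Tests used limma 3.58.1 in R 4.3.3 (trend and robust variances), Benjamini-Hochberg adjusted over all genes tested at 0.05. Mean responses had genotype as a block and levels had treatment as a block (2 residual degrees of freedom), and differences between responses were tested on 3 ratios (1 residual degree of freedom). The block by genotype follows from the labels, since each genotype gave a culture with TGF-b and a culture without it. The code was tested on simulated data, where directions and sizes were recovered and the differences between responses called none of the changed genes. Of 200 changed genes the mean response recovered 198, with 33 false calls besides. The Smad2KO and Smad3KO level tests recovered 198 and 200, with 17 false calls each. Each of these tests made more false calls than its threshold allows. Figures were drawn with matplotlib 3.10.9 in Python 3.11.15.

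Values on every array were given for 6 members always named, of those read, and for members past the threshold (the 6 largest where over 12 passed). They were also given for the 3 highest and 3 lowest ratios in each genotype and for the highest and the lowest level difference of each knockout. A few further examples were chosen after their values were seen. Alternatives were quantile normalization, centring, other floors, other filters, the mean of probe sets, ordinary variance moderation, all 8 arrays, no block and leaving out arrays. The members and lists were chosen with earlier results of these data known.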

Additional observations from a re-analysis of the deposited data

How the results depend on the processing

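No member past the threshold changed direction under any alternative that was run, and genes that are no members were not followed through the alternatives. At least 39 of 47 members stood below 0 in the mean response to TGF-b and at least 44 above 0 in Smad3KO against WT under every alternative, but counts of calls moved widely. The cause was not tested.

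For the mean response the 13 members lower became 0 with no filter, 0 without trend and robust variances, 0 with all 8 arrays, 1 with the mean of probe sets and 1 with no replicate block (genotype left out), and 0 to 22 with a genotype pair left out, where members higher were 0 to 1 and their median -0.39 to -0.21. The 1207 genes called became 459 with no filter, 539 with the mean of probe sets, 393 without trend and robust variances, 68 with all 8 arrays, 599 with no replicate block and 402 to 1804 with a pair left out.

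For Smad3KO against WT the 4 members higher became 2 with quantile normalization, 8 with a floor at the 25th percentile, 2 with no floor and log2(signal + 16), and 0 with no filter, a filter on mean signal, the mean of probe sets, no trend and robust variances, all 8 arrays or no replicate block (treatment left out). Leaving out an array gave 0 to 16 higher, 0 to 1 lower and a median of 0.25 to 0.57. The 44 genes called became 125 with the 25th percentile floor, 4 with no filter, 19 with a filter on mean signal, 5 with the mean of probe sets, 3 without trend and robust variances, 2 with all 8 arrays, 0 with no replicate block and 5 to 263 with an array left out.

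For Smad2KO against WT the 95 genes called became 147 with the 25th percentile floor, 13 with no filter, 10 with the mean of probe sets, 4 without trend and robust variances, 3 with all 8 arrays, 10 with no replicate block and 21 to 209 with an array left out. The members' median was -0.21 to -0.07 with an array left out. Members higher were 1 with the 25th percentile floor, and with an array left out 0 to 1 were higher and 0 to 1 lower. For the differences between responses no array pair could be left out, since no residual degree of freedom remains. The signal over background limits Cdc25c, whose signals came nearest the floor.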
